A study of Mus musculus with 12 samples.

Results

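Genes known for their use in non-classical monocytes, the patrolling Ly6C-low subset, were examined in bone marrow monocytes/macrophages of mice carrying a human leukaemia. The list held 10 genes: Nr4a1, Cx3cr1, Ace, Treml4, Itgal, Spn, Pou2f2, Cd36, Ear2 and Cebpb. Each was looked up by gene symbol or alias in the annotation of the array, and the transcript cluster (the probe group that stands for 1 gene) with the highest mean over the 12 arrays was taken. A cluster was found for 9 of the 10, of 65956 clusters on the array. For 8 genes the cluster carried 1 symbol, and all 8 passed the filter on low values and were tested, among 37240 clusters and 19491 named genes. The cluster of Pou2f2 was also annotated to the microRNA gene Mir6537, so its values are given as those of a shared cluster and are not counted with the 8. Ear2 was not analysed here.

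The arrays were Clariom D (Mouse Transcriptome 1.0) arrays of RNA from monocytes/macrophages that had been purified from bone marrow by magnetic separation, 1 mouse per array. All mice were Rag2-/-gamma c-/- on the BALB/c background, a strain that lacks T, B and NK cells. Recipients were injected intravenously with MEC1, an established human chronic lymphocytic leukaemia B cell line, and were killed at 21 d (11 weeks of age) or 31 d (13 weeks of age), the early and late stages of leukaemia. Controls were age-matched mice of the same genotype that received no MEC1, so the 4 groups held 3 mice each. A single cell line stands for the leukaemia in this model, and the host has no lymphocytes of its own.

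Blood monocytes of the mouse fall into a classical, Ly6C-high subset that leaves the marrow and enters inflamed tissue, and a non-classical subset that crawls along the vessel wall. Non-classical cells arise largely by conversion of classical cells, and the orphan nuclear receptor NR4A1 is needed for them to form and survive. NR4A1 is also an immediate-early gene product whose RNA is made and lost within a short time of a stimulus. C/EBP beta acts upstream of Nr4a1 in this conversion. The fractalkine receptor CX3CR1 gives survival signals, the integrin LFA-1, whose alpha chain is encoded by Itgal, carries the crawling, and CD43, encoded by Spn, is a surface marker of the subset.

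At 31 d Nr4a1, Cx3cr1, Itgal, Spn and Cd36 fell under MEC1, by 3.39 to 8.38-fold. Ace (1.12-fold lower, adjusted p = 0.634) and Cebpb (1.35-fold lower, adjusted p = 0.0651) did not pass the test, and Treml4 rose 1.61-fold (limma, Benjamini-Hochberg adjusted over 37240 clusters). Of the 8 genes, 5 fell and 1 rose at 31 d, and 4 fell and 0 rose at 21 d. The shift at 31 d was broad: 43.8% of all clusters tested passed an adjusted p of 0.05 there, 22.6% as rises and 21.1% as falls. Many clusters carry no gene symbol. Of the 19491 named genes tested, 5661 fell at 31 d and 637 at 21 d, and the 5 falls of 8 stand beside these. At 21 d the background over all clusters was 4.34% in either direction and 2.51% for falls. The median log2 change of the 8 genes was -1.01 at 21 d and -1.81 at 31 d, beside 0 and -0.1 over all named genes tested. Clusters at a similar level, the 1000 nearest each gene by mean, shifted too. Their median change at 31 d was -0.84 for Nr4a1, -0.81 for Cx3cr1, -0.85 for Itgal and -0.87 for Spn. It was -0.24 for Cd36, -0.22 for Treml4, -0.09 for Ace and -0.01 for Cebpb. At 21 d these medians ran from -0.37 for Spn to -0.02 for Cebpb. In bulk RNA, fewer non-classical cells, less RNA of these genes per cell and a changed share of other cells cannot be told apart.

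Several measures of the arrays themselves moved with MEC1. Spiked-in hybridisation controls read 10.47 to 10.87 (log2) on the 6 control arrays, 11.8 to 12.04 on the MEC1 arrays at 21 d and 12.15 to 13.18 at 31 d. The difference over both days was 1.53 (two-sided exact permutation test of the arrays within days, p = 0.005, the smallest the design can give). Poly-A controls were higher under MEC1 by 0.864 (exact permutation p = 0.005). The median of the mitochondrial transcripts was lower under MEC1 by a difference of -1.24 (exact permutation p = 0.005), and the array median was higher by 0.315 (exact permutation p = 0.01). MEC1 31 d replicate 3 was the most extreme of the 12 arrays on each measure. Its hybridisation controls read 13.18, its poly-A controls 8.64, its mitochondrial median 6.14 and its array median 4.4. The hybridisation controls were almost collinear with the groups, with 92.1% of their variance between the 4 groups. With their level as a covariate, 0 of the 8 genes passed limma at either day, and 4 clusters of all passed at 21 d and 7 at 31 d. The limma adjusted p of the 5 genes that fell at 31 d then ran up to 0.952 for Itgal, whose log2 change was -0.16. Spn shrank to -0.655 (adjusted p = 0.87), while Nr4a1 stood at -1.90, Cx3cr1 at -1.95 and Cd36 at -2.38. Centring each array on its median turned the 31 d split over all clusters from 8430 rises and 7867 falls into 2785 and 13739, and moved the median change over the clusters tested from 0.04 to -0.39. Quantile normalization gave 5026 rises and 5620 falls.

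**Figure D1:**
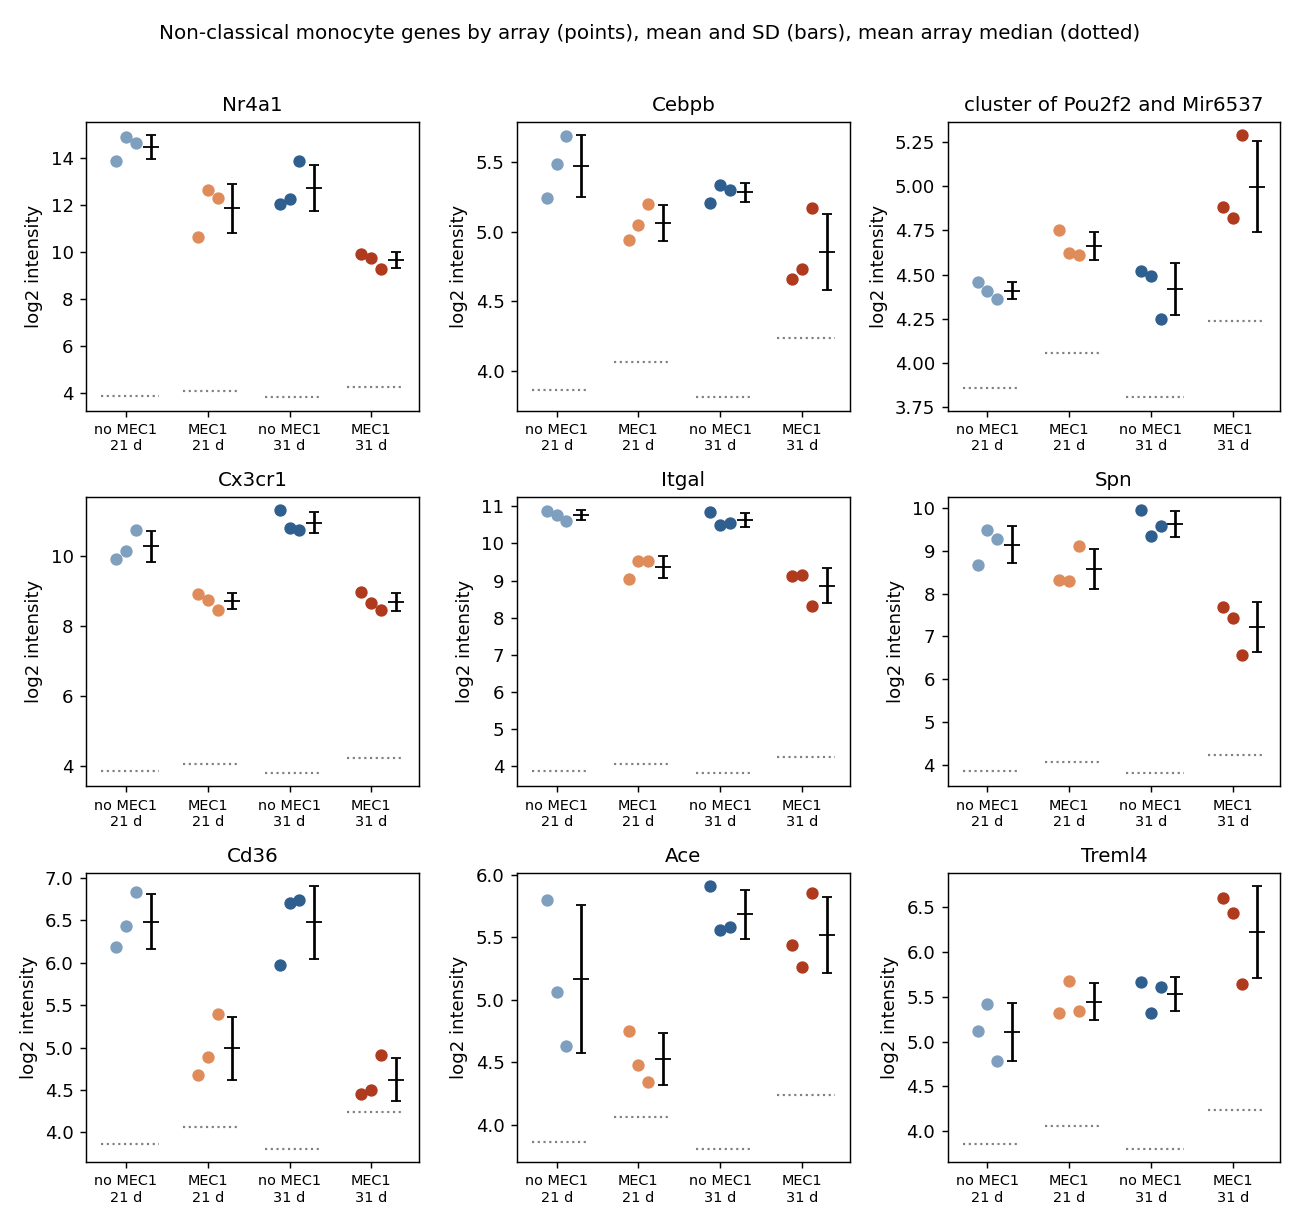
Deposited log2 intensity of each gene (vertical axis, its own range in each panel) in the 4 groups, with 1 point per array, bars for the mean and SD of 3 arrays, and a dotted line at the mean array median of the group. Nr4a1, Cx3cr1, Itgal, Cd36 and Cebpb lay lower on every MEC1 array than on every control array of the same day, though Cebpb passed at neither day. The cluster of Pou2f2 and Mir6537 lay higher on every MEC1 array. The MEC1 and control arrays of Ace overlapped at both days. How many of all clusters separate in this way was not counted.

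The regulators come first, with Nr4a1, Cebpb and Pou2f2. Nr4a1 had a log2 intensity of 13.88, 14.89 and 14.62 on the control arrays at 21 d and of 10.65, 12.63 and 12.28 with MEC1. At 31 d it read 12.04, 12.26 and 13.85 without MEC1 and 9.93, 9.75 and 9.27 with it. The MEC1 arrays were below the control arrays at both days, and the spread was widest in the MEC1 group at 21 d and the control group at 31 d. How many of all clusters have groups without overlap was not counted, here and for the genes below. The fall was 6.11-fold at 21 d (log2 change -2.61, SE 0.562, limma adjusted p = 0.0334) and 8.38-fold at 31 d (-3.07, SE 0.562, limma adjusted p = 0.00255). Clusters at a similar level, the 1000 nearest by mean, had a median change of -0.19 and -0.84. The call at 21 d was lost without control replicate 2 (limma adjusted p = 0.0963) or 3 (adjusted p = 0.105), and without MEC1 replicate 1 (adjusted p = 0.101) or 2 (adjusted p = 0.0535). At 31 d it held on leaving out any 1 of the 12 arrays, with log2 changes from -3.41 to -2.50.

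Nr4a1 also differed between the control groups. Its mean log2 intensity was 14.46 ± 0.523 (SD, n = 3) in the 21 d controls and 12.72 ± 0.988 (SD, n = 3) in the 31 d controls, and these groups did not overlap. The difference of -1.75 (SE 0.562) had an unadjusted limma p of 0.0101 and an adjusted p of 0.489. The MEC1 effect at 31 d minus that at 21 d was -0.46 (SE 0.795, limma adjusted p = 0.806). Over all clusters, limma called 0.00806% between the control groups and 0.00269% for the difference of the effects, and 0 of the 8 genes in either. At an unadjusted limma p under 0.05, 2 of the 8 passed between the controls, Nr4a1 and Cx3cr1 (a difference of 0.68), and 1 in the difference of the effects, Spn. Age, day and control group cannot be told apart in that comparison.

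Cebpb, the C/EBP family factor, read 5.24, 5.49 and 5.69 in the 21 d controls and 4.94, 5.05 and 5.20 with MEC1. At 31 d its control arrays read 5.21, 5.34 and 5.30 and its MEC1 arrays 4.66, 4.73 and 5.17. Each MEC1 array was thus below each control array of its day, by a small margin. The log2 change was -0.41 (SE 0.174, limma adjusted p = 0.189) at 21 d and -0.43 (SE 0.174, limma adjusted p = 0.0651) at 31 d, where it did not pass. It passed at 31 d after centring each array on its median (-0.86, adjusted p = 0.00433), after quantile normalization (-0.55, adjusted p = 0.0412) and without MEC1 replicate 3 (-0.59, adjusted p = 0.0248). The shared cluster of Pou2f2, which encodes the octamer-binding factor OCT2, and Mir6537 lay near the array median. It read 4.46, 4.41 and 4.36 in the 21 d controls, 4.75, 4.62 and 4.61 with MEC1, 4.52, 4.49 and 4.25 in the 31 d controls, and 4.88, 4.82 and 5.29 with MEC1. Its rise at 31 d was 0.58 (SE 0.154, limma adjusted p = 0.0137). The call was lost after centring (0.15, adjusted p = 0.378), after quantile normalization (0.37, adjusted p = 0.0818) and without control 31 d replicate 3 (adjusted p = 0.0544).

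Among the surface receptors, Cx3cr1, Itgal and Spn were measured well above the array medians. Cx3cr1, the fractalkine receptor, read 9.93, 10.16 and 10.77 in the 21 d controls and 8.93, 8.76 and 8.48 with MEC1. At 31 d it read 11.32, 10.82 and 10.77 in controls and 8.98, 8.66 and 8.46 with MEC1. The MEC1 groups of both days covered the same range, and the gap to the controls was wide at each day. Cx3cr1 fell 2.96-fold at 21 d (log2 change -1.56, SE 0.247, limma adjusted p = 0.0105) and 4.82-fold at 31 d (-2.27, SE 0.247, limma adjusted p = 0.000348). It kept its call at both days on leaving out any 1 of the 12 arrays. Its ligand gene, Cx3cl1, was below the filter on low values and was not tested.

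Itgal, the alpha chain of LFA-1, varied little among controls, with an SD of 0.137 at 21 d and 0.189 at 31 d (n = 3 each). It read 10.88, 10.78 and 10.61 in the 21 d controls against 9.03, 9.53 and 9.54 with MEC1, and 10.84, 10.49 and 10.54 in the 31 d controls against 9.11, 9.16 and 8.32. The groups were separate at both days. The fall was 2.62-fold at 21 d (-1.39, SE 0.237, limma adjusted p = 0.0144) and 3.39-fold at 31 d (-1.76, SE 0.237, limma adjusted p = 0.000652). The 21 d call was lost without MEC1 21 d replicate 1 (adjusted p = 0.0577). Its beta chain partner, Itgb2, had a log2 change of -1.15 at 31 d (SE 0.445, limma adjusted p = 0.0556) and did not pass. It passed after centring (-1.58, adjusted p = 0.0243), with the replicate block (adjusted p = 0.0492) and without MEC1 31 d replicate 1 (adjusted p = 0.0361) or 2 (adjusted p = 0.0294).

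Spn, which encodes the sialoglycoprotein CD43, had the largest difference in effect between the days among the 8 genes. At 21 d its control arrays read 8.67, 9.50 and 9.28 and its MEC1 arrays 8.33, 8.30 and 9.12, and the groups overlapped. At 31 d the controls read 9.95, 9.35 and 9.58 and the MEC1 arrays 7.68, 7.44 and 6.57, well apart. The log2 change was -0.57 at 21 d (SE 0.338, limma adjusted p = 0.329) and the fall at 31 d was 5.27-fold (-2.40, SE 0.338, limma adjusted p = 0.000791). The difference between the days was -1.83 (SE 0.478), with an unadjusted limma p of 0.00286 and an adjusted p of 0.321, so it did not pass over all clusters.

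Cd36, the scavenger receptor for oxidised lipids and fatty acids, read 6.19, 6.43 and 6.84 in the 21 d controls and 4.68, 4.89 and 5.40 with MEC1. The 31 d controls read 5.98, 6.71 and 6.74 and the MEC1 arrays 4.45, 4.50 and 4.91. The groups were separate at both days, and the control means hardly moved, at 6.49 ± 0.329 and 6.48 ± 0.430 (SD, n = 3 each). With MEC1 Cd36 lay close to the array median, by 0.32, 0.32 and 0.51 above it at 31 d and 0.48 to 1.47 at 21 d, so the low end of its fall is near the floor of the array. Cd36 fell 2.82-fold at 21 d (-1.50, SE 0.269, limma adjusted p = 0.0175) and 3.62-fold at 31 d (-1.86, SE 0.269, limma adjusted p = 0.000895). The 21 d call was lost without control 21 d replicate 2 (adjusted p = 0.0532) or 3 (adjusted p = 0.0697), and without MEC1 21 d replicate 1 (adjusted p = 0.0729) or 2 (adjusted p = 0.0687). At 31 d the calls of Cx3cr1, Itgal, Spn and Cd36 held on leaving out any 1 of the 12 arrays.

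Ace and Treml4 were measured at lower levels of the array scale. Ace, the angiotensin-converting enzyme carried on the surface of non-classical monocytes, read 5.80, 5.06 and 4.63 in the 21 d controls and 4.75, 4.48 and 4.34 with MEC1. At 31 d it read 5.91, 5.56 and 5.58 in controls and 5.44, 5.26 and 5.85 with MEC1, and the groups overlapped at both days. The log2 change was -0.64 at 21 d (SE 0.276, limma adjusted p = 0.195) and -0.17 at 31 d (SE 0.276, limma adjusted p = 0.634). Treml4, a TREM-like receptor found on non-classical monocytes and some dendritic cells, read 5.12, 5.42 and 4.78 in the 21 d controls and 5.32, 5.68 and 5.34 with MEC1. At 31 d it read 5.67, 5.32 and 5.61 in controls and 6.60, 6.43 and 5.64 with MEC1. MEC1 replicate 3 at 31 d lay within the control range, and the other MEC1 arrays were above it. The change was 0.34 at 21 d (SE 0.257, limma adjusted p = 0.435). At 31 d it was a rise of 0.69 (SE 0.257, limma adjusted p = 0.0493) that kept its call in 2 of the 12 fits that each left out an array (adjusted p from 0.00988 to 0.152). After centring on the array median it was 0.26 (adjusted p = 0.503).

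**Figure D2:**
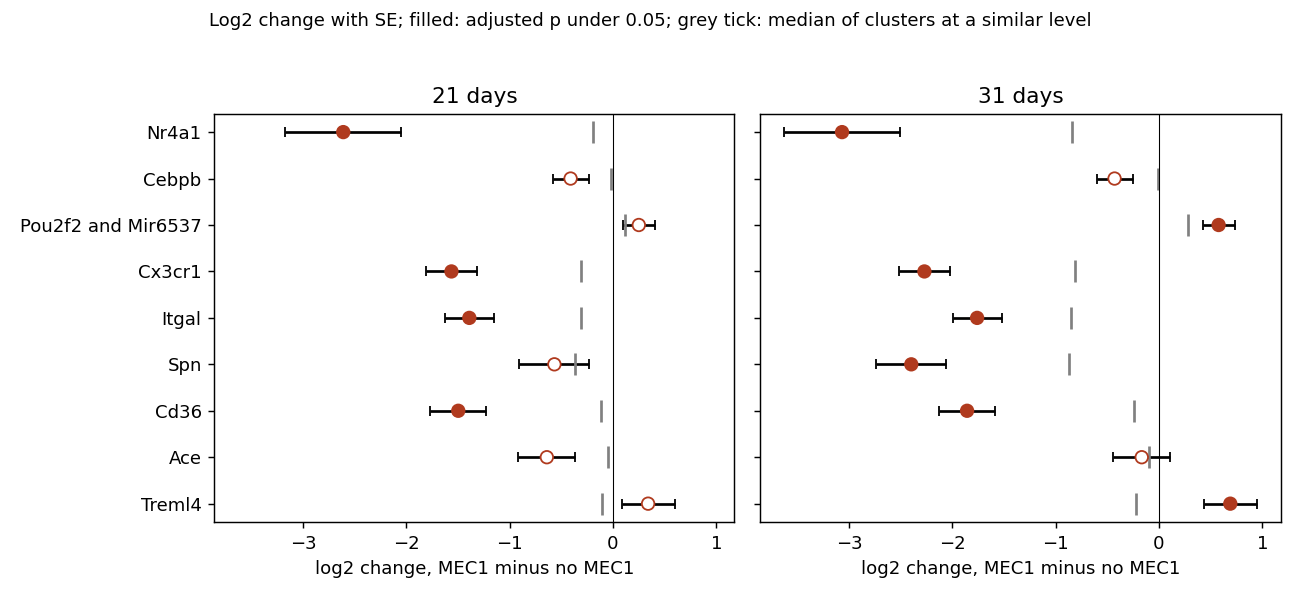
Log2 change (MEC1 minus no MEC1, horizontal axis) of each gene at 21 d and 31 d with its SE from limma over 12 arrays, filled where the adjusted p was under 0.05, and a grey tick at the median change of the 1000 clusters nearest in mean level. Nr4a1 had the lowest point at both days, at -2.61 and -3.07, and Spn moved from -0.57 at 21 d to -2.40 at 31 d.

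Other genes reported for the non-classical subset passed in both directions at 31 d. Of 14 further genes, 0 passed at 21 d, with a median log2 change of 0.03. At 31 d 5 rose and 4 fell, with a median of -0.16. The 0 calls at 21 d became 3 without MEC1 31 d replicate 3, and the 9 at 31 d became 5 without control 31 d replicate 2 or 3. The largest rises were of Cd274, which encodes PD-L1 (1.31, SE 0.244, limma adjusted p = 0.00273), and Fcgr4, an activating IgG receptor (0.92, SE 0.282, adjusted p = 0.0234). The call of Fcgr4 was lost after centring (0.49, adjusted p = 0.169) and without control 31 d replicate 2 (adjusted p = 0.0761) or 3 (adjusted p = 0.0634) or MEC1 31 d replicate 2 (adjusted p = 0.0505) or 3 (adjusted p = 0.0896), and its change was -0.90 with the hybridisation-control covariate. The largest falls were of Klf2, a Kruppel-like factor (-2.02, SE 0.422, adjusted p = 0.00458), and Ceacam1, an adhesion receptor (-1.70, SE 0.380, adjusted p = 0.00618). Over all named genes tested, 4198 rose and 5661 fell at 31 d, of 19491.

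Genes of the classical subset moved in both directions too. Of 11 tested, 1 rose and 3 fell at 21 d (median -0.54), and 2 rose and 5 fell at 31 d (median -0.96). Over all clusters 4.34% passed at 21 d and 43.8% at 31 d. The 4 calls at 21 d became 1 without control 21 d replicate 2 or 3 or MEC1 21 d replicate 2, and 2 without MEC1 21 d replicate 1 or with only that day's arrays. Vcan, the proteoglycan versican, rose by 3.82 (SE 0.290, limma adjusted p = 8.5e-05) and Chil3, a chitinase-like protein, by 2.76 (SE 0.468, adjusted p = 0.00176) at 31 d. F13a1, the coagulation factor XIII A chain, had a change of -1.64 (SE 0.431, adjusted p = 0.0125) and Ly6c2, the gene of the Ly6C antigen that marks the classical subset, one of -1.61 (SE 0.504, adjusted p = 0.026). Both falls reversed sign with the hybridisation-control covariate, and that of Ly6c2 lost its call without control 31 d replicate 1, 2 or 3 (adjusted p = 0.0605, 0.0621 and 0.063).

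Among regulators of monocyte fate, 10 were tested. At 21 d 1 fell, Klf4 (-1.79, limma adjusted p = 0.0411), a Kruppel-like factor needed for monocyte formation. Centring called 3 at 21 d, and leaving out 1 array between 0 and 3, the 3 without MEC1 31 d replicate 3. At 31 d 1 rose and 5 fell, with a median of -0.57, where 22.6% of all clusters rose and 21.1% fell. The largest falls were of Klf4 (-3.36, SE 0.420, adjusted p = 0.000559) and Irf8, a lineage-determining interferon regulatory factor (-2.62, SE 0.378, adjusted p = 0.00088). Hes1, a Notch target, rose by 0.52 (SE 0.127, adjusted p = 0.00886), a call that was lost after centring (0.09, adjusted p = 0.55) and quantile normalization (0.13, adjusted p = 0.446). Hes1 lay near the array median, at a mean of 3.99 in the 31 d controls and 4.51 with MEC1. The receptor gene Notch2, of the same list, had a change of -2.20 at 31 d (SE 0.364, limma adjusted p = 0.0016). The call of Klf4 at 21 d was lost without any 1 of 7 arrays (adjusted p up to 0.137 without control 21 d replicate 3).

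In the group of LFA-1 adhesion genes, 0 of 10 passed at 21 d (median -0.31), and 1 rose and 4 fell at 31 d (median -0.82). With 43.8% of all clusters called at 31 d, 5 of 10 is near the share over the whole array. The largest falls were of Itgb1, the beta chain of the VLA integrins (-1.90, SE 0.235, limma adjusted p = 0.000542), and Tln1, the integrin-activating adaptor talin (-1.83, SE 0.247, adjusted p = 0.000651). Icam1, a ligand of LFA-1, rose by 0.93 (SE 0.289, adjusted p = 0.0247). Its call was lost after centring (0.50, adjusted p = 0.263) and without control 31 d replicate 1, 2 or 3 or MEC1 31 d replicate 1 or 2 (adjusted p from 0.0537 to 0.0798). The list's 5 calls at 31 d became 9 after centring, and 3 with only that day's arrays, without control 31 d replicate 3 and after quantile normalization without MEC1 31 d array 3. Its 0 calls at 21 d became 4 under the last of these, 3 without MEC1 31 d replicate 3, and 1 without MEC1 31 d replicate 2, with only that day's arrays or after quantile normalization of all arrays.

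**Figure D3:**
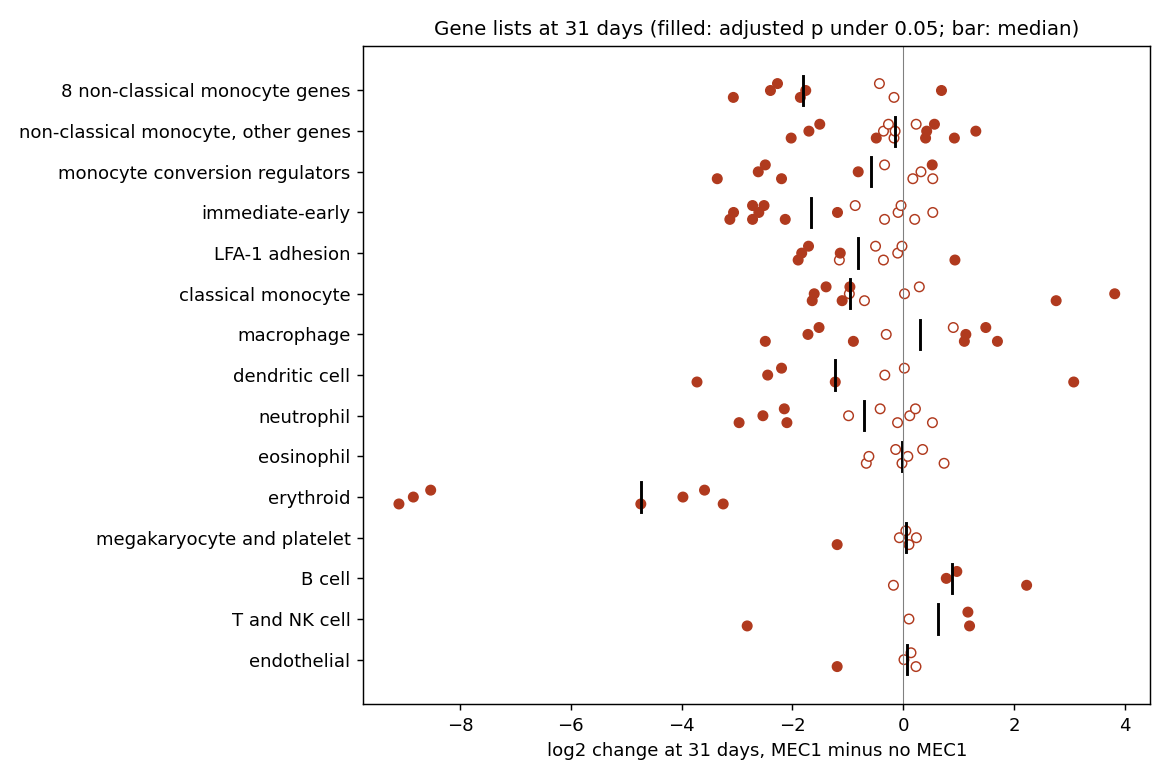
Log2 change at 31 d (MEC1 minus no MEC1, horizontal axis) of every tested gene in each list, with 1 point per gene, filled where the limma adjusted p was under 0.05, and a black bar at the list's median. The 8 non-classical genes had a median of -1.81, the 14 further non-classical genes one of -0.16 and the 7 erythroid genes one of -4.74.

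Nr4a1 was also read beside the genes it shares an induction pattern with. Of 14 immediate-early genes tested, 1 fell and 0 rose at 21 d (median -0.86), and 8 fell and 0 rose at 31 d (median -1.66). Falls made up 2.51% of all clusters tested at 21 d and 21.1% at 31 d. The 1 call at 21 d became 3 without MEC1 21 d replicate 3 or MEC1 31 d replicate 3, and 0 without any 1 of the other MEC1 21 d arrays or of the 6 control arrays. Fos had a log2 change of -3.13 (SE 0.515, limma adjusted p = 0.00157) and Jun one of -3.06 (SE 0.651, adjusted p = 0.00496) at 31 d. Both encode subunits of the AP-1 transcription factor. With the hybridisation-control covariate both changes turned positive.

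The paralogs Nr4a2 and Nr4a3 did not pass at either day on the deposited scale. They were set beside it after their values had been seen. Nr4a2 read 10.12, 9.64 and 9.36 in the 21 d controls, 9.46, 9.96 and 9.23 with MEC1, 8.60, 9.42 and 9.08 in the 31 d controls and 9.26, 9.68 and 9.76 with MEC1. Its groups overlapped at both days, with log2 changes of -0.16 (limma adjusted p = 0.747) and 0.53 (SE 0.277, adjusted p = 0.135), and after quantile normalization these were 0.087 and 1.22 (adjusted p = 0.0204), so that the rise at 31 d passed. Nr4a3 read 6.25, 5.48 and 5.60 in the 21 d controls, 5.20, 5.10 and 4.63 with MEC1, 4.95, 5.10 and 5.54 in the 31 d controls and 4.72, 4.87 and 4.99 with MEC1. Its changes were -0.80 (limma adjusted p = 0.0849) and -0.34 (SE 0.241, adjusted p = 0.267), and after centring both passed as falls (adjusted p = 0.0286 at 21 d, and -0.77 with adjusted p = 0.0139 at 31 d). Within each array the difference Nr4a1 minus Nr4a2 does not depend on the array's centre. Its MEC1 minus control value was -2.45 at 21 d and -3.60 at 31 d, and for Nr4a1 minus Nr4a3 it was -1.81 and -2.73. Since the pairs were chosen with these values known, they are given as a description, with no test.

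The start regions of the 3 paralogs are shown because all carry the same short motif as often, beside the unlike values given above. TGACG is the core of the cAMP response element, which CREB binds in immediate-early genes. It was searched on both strands, overlapping matches allowed, in the 300 bases from 250 before to 50 after each RefSeq start (GRCm38.p6), and is in capitals below (CGTCA where it lies on the other strand). Each line runs 5′ to 3′ on the strand of the gene. Cebpb, which has 3 matches, is the other gene of the list with any.
Nr4a1: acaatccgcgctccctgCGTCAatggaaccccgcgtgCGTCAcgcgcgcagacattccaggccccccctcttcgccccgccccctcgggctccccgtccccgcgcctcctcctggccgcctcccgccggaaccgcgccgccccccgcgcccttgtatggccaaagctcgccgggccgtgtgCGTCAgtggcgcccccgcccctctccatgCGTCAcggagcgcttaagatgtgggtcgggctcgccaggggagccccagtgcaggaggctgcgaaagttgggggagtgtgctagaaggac
Nr4a2: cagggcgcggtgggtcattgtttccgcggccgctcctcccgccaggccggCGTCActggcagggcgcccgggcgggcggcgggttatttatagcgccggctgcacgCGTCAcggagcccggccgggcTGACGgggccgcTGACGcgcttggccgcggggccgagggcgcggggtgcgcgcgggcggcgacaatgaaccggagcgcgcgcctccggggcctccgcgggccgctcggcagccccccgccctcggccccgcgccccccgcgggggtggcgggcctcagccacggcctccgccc
Nr4a3: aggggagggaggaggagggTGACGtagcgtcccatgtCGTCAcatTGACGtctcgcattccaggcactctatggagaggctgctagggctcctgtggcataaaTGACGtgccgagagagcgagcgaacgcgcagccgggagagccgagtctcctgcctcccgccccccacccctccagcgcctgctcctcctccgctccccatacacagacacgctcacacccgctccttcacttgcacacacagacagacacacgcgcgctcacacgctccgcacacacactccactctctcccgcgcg
Cebpb: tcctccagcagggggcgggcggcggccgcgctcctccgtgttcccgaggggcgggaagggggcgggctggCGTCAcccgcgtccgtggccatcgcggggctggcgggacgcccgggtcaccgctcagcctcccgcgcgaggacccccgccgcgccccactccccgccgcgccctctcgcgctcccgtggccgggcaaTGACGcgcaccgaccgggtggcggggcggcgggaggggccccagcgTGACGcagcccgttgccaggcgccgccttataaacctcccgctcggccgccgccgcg
They lie at chr15:101266596-101266895 (plus strand), chr2:57123954-57124253 (minus strand), chr4:48045055-48045354 (plus strand) and chr2:167688665-167688964 (plus strand).

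Nr4a1, Nr4a2 and Nr4a3 each held 4 matches. Of the 32851 promoters in the table, 76 (0.231%) held at least 4, 340 (1.03%) at least 3 and 6837 (20.8%) at least 1. Counted by gene, 9 of 12 immediate-early genes (75%) held at least 1, beside 23% of all genes. Those 12 include Nr4a2 and Nr4a3. The matches of Nr4a1 all lay on the strand opposite to the gene, the nearest ending 36 bases before the start. The full palindrome TGACGTCA stood in 1.79% of all promoters and in 0 of the 10 promoters found for 9 of the list's genes, and the same held for the NR4A binding element AAAGGTCA (1.51% of all) and the C/EBP palindrome TTGCGCAA (0.183% of all). The GC box GGGCGGGG was in the promoters of Nr4a1, Ace and Pou2f2, and in 17.6% of all. Itgal was not among the promoters matched. These are matches of letters in 1 window, and no binding was measured.

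The genes whose profile over the 12 arrays was closest to Nr4a1 were H1f2, Klf4 and Irs2. Likeness was the root mean square difference after centring each gene on its own mean, in log2 units, over all tested clusters with 1 symbol. It was 0.494 for H1f2, a linker histone, 0.554 for Klf4, and 0.605 for Irs2, an adaptor of insulin signalling. H1f2 had changes of -1.74 at 21 d and -2.70 at 31 d, and Irs2 of -3.26 and -2.50. Closest to Cx3cr1 were Abca6, a lipid transporter (0.226), Krt80, a keratin (0.234), and Sulf2, an extracellular sulfatase (0.294). Krt80 had changes of -1.77 at 21 d and -2.28 at 31 d, and Sulf2 of -2.11 and -2.25. The differences to Nr4a1 were larger than those to Cx3cr1 in log2 units, but the measure is not scaled to how far a gene itself varies. Within the list, Treml4 and the shared cluster of Pou2f2 (0.427), Cd36 and Itgal (0.451) and Itgal and Spn (0.470) were close. Nr4a1 and Treml4 were farthest apart (2.21).

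**Figure D4:**
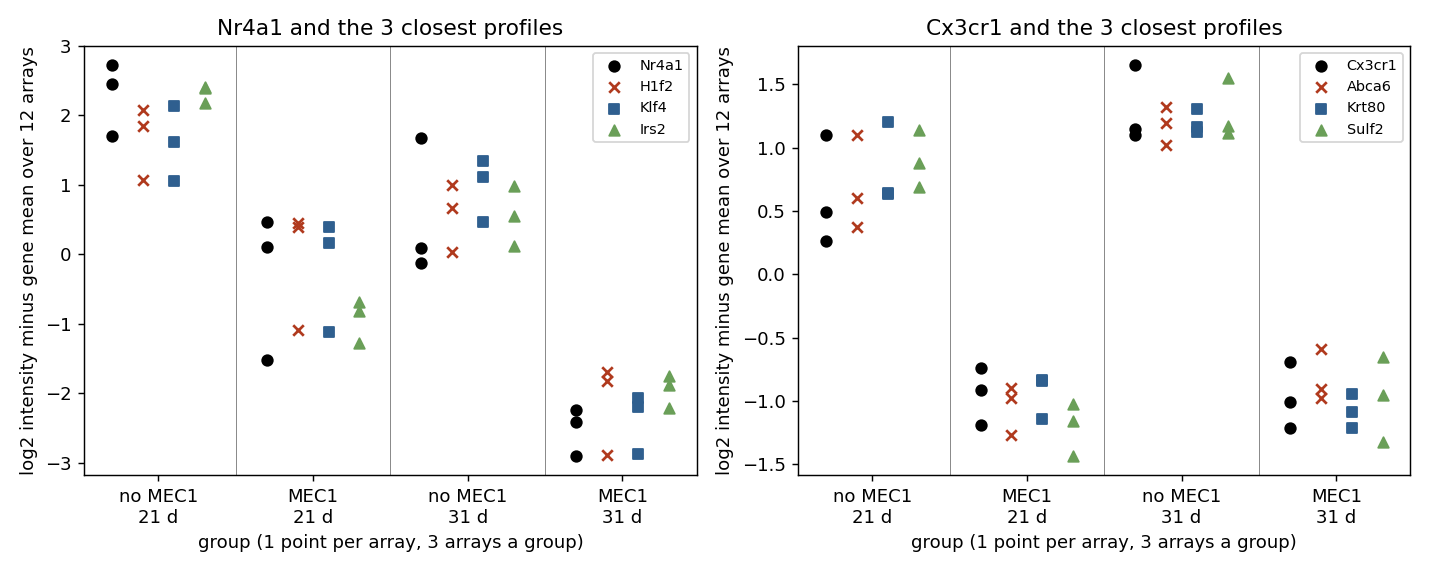
Log2 intensity minus the gene's mean over 12 arrays (vertical axis) for Nr4a1 and Cx3cr1 and the 3 genes closest to each, with 1 point per array in the 4 groups. The 3 genes near Cx3cr1 differed from it by a root mean square of 0.226 to 0.294, and those near Nr4a1 by 0.494 to 0.605.

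The label was checked with 4 chosen genes carried by monocytes and macrophages in general, Csf1r, Itgam, Adgre1 and Lyz2. Csf1r is also 1 of the 14 further non-classical genes, and Adgre1 and Lyz2 are from the macrophage list. Of that list of 10, 4 rose and 4 fell at 31 d. Those that rose were C1qa, C1qb, C1qc and Mertk, by 1.49, 1.10, 1.13 and 1.70. They lay near the array median in the 21 d controls, at 4.02, 3.63, 3.74 and 3.49. Csf1r, the receptor for the growth factor of the lineage, had a mean log2 intensity of 11.69 in the 21 d controls, 10.70 with MEC1, 11.72 in the 31 d controls and 10.21 with MEC1. Itgam, which encodes CD11b, read 13.50, 12.35, 13.34 and 12.21 in the same order, and Adgre1, an adhesion receptor of macrophages, 8.63, 7.49, 8.97 and 7.45. Lyz2, lysozyme M, read 19.34, 18.60, 19.33 and 17.61, near the highest value of the table (19.93). The 4 chosen genes were far above the array medians in each group, and the 11 classical monocyte genes were above them too. Every measured gene of the neutrophil, eosinophil and erythroid lists was also above them in each group. In the 21 d controls Mpo read 17.64 and Prg2 19.24. A level above the array median thus does not set monocytes apart from these cells. All 4 chosen genes also fell at 31 d, Csf1r by -1.51 (SE 0.339, limma adjusted p = 0.00646), Itgam by -1.14 (adjusted p = 0.0158), Adgre1 by -1.52 (adjusted p = 0.0176) and Lyz2 by -1.72 (adjusted p = 0.0141). The call of Adgre1 was lost after quantile normalization (-0.95, adjusted p = 0.13) and without control 31 d replicate 3 (adjusted p = 0.0617) or MEC1 31 d replicate 3 (adjusted p = 0.0507), and all 4 changes turned positive with the hybridisation-control covariate. At 21 d none of the 4 passed (limma adjusted p from 0.0655 to 0.348). Itgam passed there with only that day's arrays (adjusted p = 0.034), where Nr4a1 (0.07) and Cd36 (0.0515) did not, after quantile normalization (adjusted p = 0.0493) and without MEC1 31 d replicate 2 (adjusted p = 0.0414). Without MEC1 31 d replicate 3, Itgam (adjusted p = 0.00433), Csf1r (adjusted p = 0.0177) and Adgre1 (adjusted p = 0.0493) all passed at 21 d. The difference between these genes and the list was not tested.

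Markers of other cells that the magnetic fraction could hold were read over whole lists, as the mean log2 intensity of a list on each array. Their counts at 31 d stand beside 43.8% of all clusters called there, 22.6% as rises and 21.1% as falls. Erythroid genes ranged from 9.84 to 11.64 in the 21 d controls, 6.37 to 9.86 with MEC1, 11.11 to 11.65 in the 31 d controls and 5.09 to 5.81 with MEC1, and 7 of 7 fell at 31 d. Neutrophil genes were at 14.5 to 14.86 in the 31 d controls and 11.98 to 14.43 with MEC1, where 4 of 10 fell and 0 rose. These 4 calls became 2 without control 31 d replicate 1, 2 or 3, and 1 with only that day's arrays. Dendritic cell genes had 1 rise and 4 falls of 7 at 31 d. Macrophage genes had 4 rises and 4 falls of 10, and 5 calls without MEC1 31 d replicate 3 or after quantile normalization. Eosinophil genes had 0 calls of 7 in limma, and 1 after centring, with the replicate block and without MEC1 31 d replicate 3. The mean of the B cell genes ran from 4.09 to 4.17 in the 31 d controls and from 4.72 to 5.20 with MEC1. There 4 and 2 of the 7 genes were at or below the array median, and 3 of 4 tested rose. Pax5 rose most, from a mean of 4.63 to 6.86 at 31 d (2.23, SE 0.164, limma adjusted p = 8.5e-05). It also rose by 1.34 at 21 d (adjusted p = 0.00378). Blk and Cd79a rose at 31 d by 0.97 and 0.78, and Cd79b did not pass. T and NK cell genes had 2 rises and 1 fall of 4, endothelial genes 1 fall of 4 and megakaryocyte genes 1 fall of 5. The hybridisation-control covariate, almost collinear with the groups, left 7 of all clusters called at 31 d and 0 genes in any of the lists. The part of these cells in the values of the non-classical genes was not tested.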

How the data were processed

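The authors' deposited table holds log2 intensity values per transcript cluster, made with Affymetrix Expression Console and RMA, per the submitters' processing notes. The genome build of the array annotation is not given in the sources used here. The 12 columns were mapped to groups by their labels. Control probe sets (6732 of 72688) were left out. Of the clusters, 31258 carried 1 gene symbol, 1492 several and 33206 none. A cluster was tested if it was above its array's median on at least 3 of 12 arrays. Group means of all 4 groups were fitted with limma 3.58.1 (R 4.3.3), and the Benjamini-Hochberg adjustment ran over 37240 clusters, with a threshold of 0.05. The script was tested on simulated data. With 3 arrays a group, the number of arrays bounds how precise a value can be. No label says whether mice shared a litter or a processing day.

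The genes and gene lists were chosen with earlier results of these data known. Named from the monocyte, immediate-early and adhesion lists were the genes past the threshold with the 2 largest rises and falls at 31 d, the genes set directly beside a list member or used to check the cell type, and the 3 genes most like Nr4a1 and Cx3cr1. Notch2 was named beside Hes1. Of lists of other cells, counts are given, with levels for the erythroid, neutrophil and B cell lists and names for the tested B cell genes. The alternatives were other filters, quantile normalization, centring, limma's trend and robust options, fits on fewer arrays, a replicate block and a hybridisation-control covariate. Promoters came from RefSeq (GRCm38.p6).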

Additional observations from a re-analysis of the deposited data

How the results depend on the processing

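The number of clusters called at 21 d was 1615, and it was 1066 after quantile normalization, 469 with only that day's arrays, 831 with the replicate block, 4 with the hybridisation-control covariate and 333 to 2875 on leaving out 1 array. At 31 d, 16297 became 30065 with no filter, 10483 with a filter at the 70th percentile, 10646 after quantile normalization, 7140 after quantile normalization without MEC1 31 d array 3, 7 with the covariate and 10556 to 16599 on leaving out 1 array. Of the 8 genes, the 4 called at 21 d became 2 with only that day's arrays, 0 with the covariate and 1 to 4 on leaving out 1 array, and the 6 at 31 d became 0 with the covariate. The difference between the days called 17, 16 and 4 clusters with quantile normalization, with it and without that array, and with the covariate, and 1 to 5 on leaving out 1 array. The control comparison called 10, 15, 15 and, with only its own arrays, 0, and 1 to 12 on leaving out 1 array. The difference has no fit on fewer groups, since it uses all 12 arrays, and each gene of the list had 1 cluster, so averaging clusters changed nothing.

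Changes of sign under quantile normalization, centring or on leaving out 1 array were in control comparisons, in differences between days, and in 21 d values of Nr4a2 and Fcgr4, while the covariate also turned changes called at 31 d. The control comparison of Cd36 was 0.038 after quantile normalization, 0.043 centred, 0.039 after quantile normalization without that array, 0.041 with the covariate and -0.158 to 0.238 on leaving out 1 array, and that of the Pou2f2 cluster -0.040 to 0.095. The difference between days for Itgal was 0.024, 0.094 and 0.326, and for Nr4a1 0.050, 0.039 and 0.053 (quantile, quantile without that array, covariate), with -1.058 to 0.110 for Nr4a1 and -0.178 to 0.097 for Cebpb on leaving out 1 array. Nr4a2 at 21 d was 0.087 under both quantile settings and -0.362 to 0.050, and Fcgr4 at 21 d -0.362 to 0.168, on leaving out 1 array. With the covariate the Pou2f2 cluster was -0.179 at 21 d, -0.184 at 31 d and -0.004 in the difference, and Spn at 21 d 0.417. Also with it, at 21 d, Cd274 was -0.104, Ceacam1 0.846, Chil3 0.079, F13a1 1.293, Fos 0.587, Hes1 -0.018, Irf8 0.513, Itgb1 0.243, Itgb2 0.983, Jun 1.679, Ly6c2 2.248, Tln1 0.161, Adgre1 0.052, Csf1r 0.425, Itgam 0.162 and Lyz2 1.243, and at 31 d Ceacam1 1.407, F13a1 1.850, Fcgr4 -0.900, Fos 0.541, Itgb2 1.891, Jun 1.562, Ly6c2 2.941, Adgre1 0.591, Csf1r 1.005, Itgam 1.180 and Lyz2 1.797. The cause was not tested.

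The labels repeat the numbers 1 to 3 in each group and do not say whether equal numbers pair mice. The main fits did not pair them. Deviations of arrays with the same number correlated from -0.169 to 0.415 between the groups of a day, and down to -0.358 over all pairs of groups, and 7 of 12 arrays correlated best with their own number. With the replicate block Cebpb passed at 31 d (adjusted p = 0.0458). Within-array differences were -3.17 for Nr4a1 minus Nr4a2 and -1.93 for Nr4a1 minus Nr4a3 after quantile normalization, and -3.28 to -2.75 and -2.53 to -1.91 on leaving out 1 array. This pair of comparisons, its alternatives and those of the list genes were added after seeing the data.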
